A study of Mus musculus with 8 samples.

Results

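The 4 Hox gene clusters of the mouse were examined for 5-hydroxymethylcytosine (5hmC) in an embryonic stem cell line that lacks its own TET enzymes and carries an inducible one. Every CpG call inside 4 fixed intervals of the GRCm38 assembly was taken. These were chr6:52150000-52265000 for Hoxa, chr11:96190000-96370000 for Hoxb, chr15:102920000-103040000 for Hoxc and chr2:74665000-74770000 for Hoxd, together 520 kb. They held 1666 of the 1849087 CpG calls of the study (0.0901%), on 349 of its 832996 reads and at 1569 CpG positions. All cells came from 1 stable line in which TET1, TET2 and TET3 were inactivated and which carried the catalytic domain of mouse TET3 on a PiggyBac transposon, under doxycycline control and linked to an mCherry reporter. The groups were 3 libraries without doxycycline (0 h), 2 libraries after 6 h and 3 libraries after 12 h in 1 µM doxycycline, named here by time and letter, and all cells were kept in 50 µg/ml ascorbate. No library from a line with its own TET enzymes, and none with an inactive domain, entered the comparisons. Nothing in the labels tells whether libraries of a group stem from separate cultures. The p-values therefore measure only the spread among these libraries, and that spread may be technical.

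Hox genes encode homeodomain transcription factors that give cells their position along the head-to-tail axis of the embryo and, later, along the limb. Genes of the same number in different clusters are paralogues, and low numbers are used further towards the head than high numbers. In embryonic stem cells the clusters are known as long, CpG-rich domains held silent by Polycomb proteins, and CpG islands of this kind usually carry little DNA methylation. TET enzymes oxidise 5-methylcytosine to 5hmC, so a CpG without methylation offers them no substrate. The assay, ACE-seq, protects 5hmC with a glucose and then deaminates unprotected cytosines with APOBEC3A, so an undeaminated CpG call is read as 5hmC. The share of CpG calls that were undeaminated is called the level below, and the level at 0 h is the background of the assay in cells without induced enzyme.

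Promoter sequences are shown first, because CpG-rich promoters usually carry little DNA methylation. Whether this holds in the cells used here, which lack their own TET enzymes, was not examined. RefSeq windows of 300 bases, from 250 before to 50 after a start site (GRCm38.p6), matched 22 of the 39 Hox genes and gave 24 windows. In each sequence, written 5′ to 3′ on the strand of the gene, capitals mark the CpGs that at least 1 library called. The Hoxa3 window lies at chr6:52213018-52213317 on the minus strand and the Hoxd10 window at chr2:74691641-74691940 on the plus strand. They were the windows with the most calls in their clusters. In Hoxb and Hoxc only Hoxb1, Hoxb4, Hoxb8 and Hoxc4 had a window, and none of these windows had a call. All other windows lay in Hoxa and Hoxd, so the promoter values below describe mostly those clusters.
Hoxa3: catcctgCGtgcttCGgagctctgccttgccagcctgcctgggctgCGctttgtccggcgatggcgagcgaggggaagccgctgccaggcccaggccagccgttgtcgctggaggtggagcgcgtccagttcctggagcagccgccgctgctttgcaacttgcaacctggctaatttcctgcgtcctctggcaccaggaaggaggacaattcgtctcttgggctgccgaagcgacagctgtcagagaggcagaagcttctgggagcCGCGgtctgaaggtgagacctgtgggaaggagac
Hoxd10: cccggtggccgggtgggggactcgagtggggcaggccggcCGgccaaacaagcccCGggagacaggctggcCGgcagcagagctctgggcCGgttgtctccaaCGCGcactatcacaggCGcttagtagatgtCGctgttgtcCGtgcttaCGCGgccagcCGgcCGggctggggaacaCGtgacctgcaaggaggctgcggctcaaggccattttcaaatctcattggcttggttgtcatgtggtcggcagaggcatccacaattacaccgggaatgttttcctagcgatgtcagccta
Hoxa3 had 20 CpGs in this window and 5 of them were called, with 0 undeaminated of 3 calls at 12 h and 0 of 2 at 0 h. Hoxd10 had 22 CpGs, of which 14 were called on 1 read of a 12 h library, and 0 of these 14 were undeaminated. Over the 24 Hox windows, 0 of 23 calls at 12 h were undeaminated, which allows a level of up to 13.04%. None of 2 calls at 6 h and none of 8 calls at 0 h was undeaminated, too few to set a level. All 23 lay in 4 windows with at least 20 CpGs. In windows of all other genes the level at 12 h was 6.57% (2051 of 31227 calls), and it was 2.82% (593 of 21051 calls) in windows with at least 20 CpGs. The depth in Hox promoters cannot tell their level from that of other CpG-rich promoters. Hox windows held a median of 14.5 CpGs, against 7 in the 32793 windows of other genes, and 45.8% of Hox windows, against 26.4% of the others, held at least 20. The Hox windows ranged widely, with 4 to 45 CpGs.

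The libraries held 192565 to 485941 calls at 12 h, 75023 and 294209 at 6 h and 87030 to 157700 at 0 h. The level of all nuclear calls was 22.4%, 23.3% and 26.8% in 12 h libraries A, B and C, 6.58% and 6.27% in 6 h libraries A and B, and 0.899% to 1.26% at 0 h. Intervals below are 95% Wilson intervals, which cover counting error only.

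The Hox clusters held more reads with a CpG call per kb than their surroundings, and these reads carried more CpGs. Reads without a CpG are not in the data, so these densities do not measure sequencing depth. They had 0.671 reads and 3.20 calls per kb over the 8 libraries, against 0.432 reads and 1.01 calls per kb in the 500 kb on either side of each cluster. A Hox read carried 4.77 CpG calls on average, against 2.34 in the flanks and 2.22 in the whole study. At 12 h, 32.3% of Hox calls sat on reads with 11 or more CpGs, against 9.84% in the flanks and 6.97% in the libraries. Coverage was thin at single sites, since 1485 of the 1569 positions were called in 1 library only. The number of CpGs on a read, a measure of local CpG density, is therefore matched in some of the comparisons below, which say so.

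Hox clusters gained undeaminated calls with time in doxycycline. At 0 h, 0 of 142 calls were undeaminated in library A, 0 of 96 in B and 1 of 90 in C. The count of 0 allows a level of up to 2.11% in A and 3.13% in B. At 6 h, 4 of 77 calls were undeaminated in A (5.19%, interval 2.04% to 12.6%) and 10 of 274 in B (3.65%, interval 1.99% to 6.59%). At 12 h, 46 of 401 calls were undeaminated in A (11.5%, interval 8.71% to 14.96%), 57 of 440 in B (12.95%, interval 10.1% to 16.4%) and 23 of 146 in C (15.8%, interval 10.7% to 22.5%). Every 12 h library was above every 6 h library, and both 6 h libraries were above all 0 h libraries. The mean level was 0.370% ± 0.642 at 0 h (SD, n = 3), 4.42% ± 1.09 at 6 h (SD, n = 2) and 13.4% ± 2.17 at 12 h (SD, n = 3).

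In a limma fit of the level over 2099 genomic windows of 500 kb and the Hox clusters as 1 more row, the Hox level was higher by 12.5 ± 1.28 percentage points at 12 h than at 0 h (SE, limma adjusted p = 6.92e-06). Among the windows, 99.2% rose by the same test, with a median difference of 22.9 points. A gain was thus common to nearly all windows tested. Parts of the genome with too few calls for this fit were not tested. The Hox difference between 12 h and 6 h was 8.73 ± 1.64 points (SE, limma adjusted p = 0.000860), where 94.1% of windows rose. Between 6 h and 0 h it was 3.72 ± 1.24 points and missed the threshold of 0.05 (SE, limma adjusted p = 0.0642), where 14.1% of windows rose. Its limma adjusted p was 0.0474 without 12 h library A and 0.0460 without C. All windows of a library share its overall rise and the fit treats them as independent, so the SE and p-values of these gains may be far too small. This fit of the gain was added after the data were seen. Exact two-sided permutation tests of the level over libraries gave p = 0.1 for 12 h against 0 h, with a difference of 13.02 points, and p = 0.2 for 6 h against 0 h and for 12 h against 6 h. These are the smallest p-values that so few libraries allow, and each was 0.2 after adjustment over the 3 tests.

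**Figure D1:**
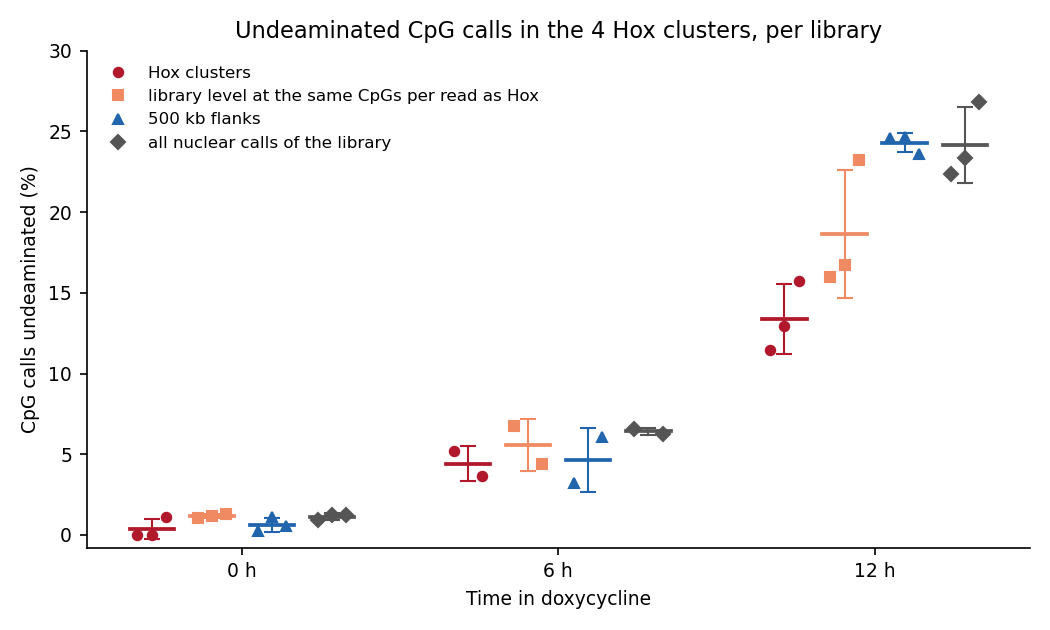
Percent of CpG calls that were undeaminated (y axis) by time in doxycycline (x axis), with 1 point per library, bars at the mean and error bars of 1 SD. The Hox clusters (circles) are set beside the level of the same library at the same CpGs per read (squares), the 500 kb flanks (triangles) and all nuclear calls (diamonds). At 12 h the Hox points lie between 11.5% and 15.8%, below all points of the flanks and of all nuclear calls.

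The level that the Hox clusters reached at 12 h was below that of the rest of the genome. The level was 11.5%, 12.95% and 15.8% in Hox clusters of libraries A, B and C, against 22.4%, 23.3% and 26.8% in all nuclear calls of the same libraries. The differences were -10.9, -10.4 and -11.1 points, close to each other in all 3 libraries. At 6 h they were -1.38 and -2.62 points in A and B, and at 0 h -0.899, -1.23 and -0.146 points in A, B and C. Relative to the library level, Hox clusters changed by -9.88 ± 1.17 points at 12 h against 0 h (SE, limma over 2100 rows, adjusted p = 0.00575). By the same test 1 of 2099 windows was called lower (0.0476%) and 71 were lower at an unadjusted p under 0.05. Hox had the second smallest p of the table and the 22nd lowest difference. Between 12 h and 6 h the change was -8.33 ± 1.503 points (SE, limma adjusted p = 0.163) and between 6 h and 0 h -1.55 ± 1.14 points (SE, limma adjusted p = 0.909), so neither passed. The call for 12 h against 0 h rests on 12 h libraries A and B, since its limma adjusted p was 0.100 without A and 0.0884 without B, at differences of -9.74 and -10.1 points, and 0.0299 without C. It was also lost with 1 call per read (-5.93 points, limma adjusted p = 0.567, with 858 rows) and with equal weights for all windows (-10.02 points, limma adjusted p = 0.357). In a quasi-binomial fit on the logit scale, which compares odds, the sign turned (0.526), with 1 undeaminated Hox call at 0 h.

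The flanks had levels close to those of their libraries. At 12 h the flanks had 24.6%, 24.7% and 23.6% in A, B and C, which gives differences of -13.1, -11.7 and -7.86 points between the Hox clusters and their own surroundings. The Hox level changed relative to the flanks by -11.5 ± 1.73 points at 12 h against 0 h (SE, limma over 2045 rows, adjusted p = 0.0521). This was the smallest p of that table and it missed the threshold. No window was called against its own flanks, and 79 were lower at an unadjusted p under 0.05. At 6 h the Hox clusters were at 5.19% and 3.65% and the flanks at 3.24% and 6.07% in A and B, so the order of the regions differed between these libraries.

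Comparison at the same number of CpGs per read shrank the difference. Each library has its own level for reads with 1, 2, 3, 4 to 5, 6 to 7, 8 to 10 and 11 or more CpGs, and these levels were averaged over the mix of Hox reads. At 12 h the level so obtained was 16.0%, 16.8% and 23.2% in A, B and C, and the Hox clusters differed from it by -4.49, -3.796 and -7.46 points. The change at 12 h against 0 h was -3.70 ± 1.17 points (SE, limma adjusted p = 0.398), and no window was called lower by this measure, while 48 were lower at an unadjusted p under 0.05. Against the flanks at the same CpGs per read the change was -5.78 ± 1.52 points (SE, limma adjusted p = 0.678). At 6 h against 0 h the change at the same CpGs per read was -0.0451 ± 1.14 points (SE, limma adjusted p = 0.994), and at 12 h against 6 h it was -3.65 ± 1.504 points (SE, limma adjusted p = 0.556). At 12 h the Hox clusters were below the matched level of the library and of the flanks in all 3 libraries, but none of the matched changes passed the threshold.

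**Figure D2:**
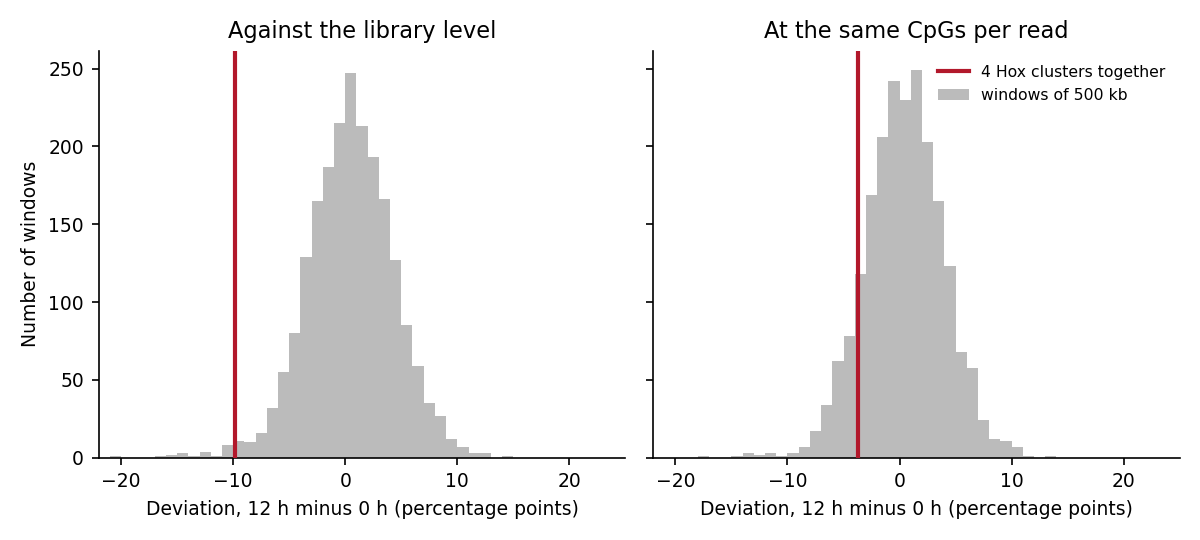
Number of windows (y axis) by the change in deviation from the library level between 12 h and 0 h in percentage points (x axis), without matching on the left and at the same CpGs per read on the right. Grey bars count 500 kb windows and the red line marks the 4 Hox clusters, at -9.88 points on the left, in the lower tail, and at -3.70 points on the right.

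Hox reads with 1 or 2 CpGs had pooled levels near those of the genome, and Hox reads with 3 to 7 CpGs had lower ones. At 12 h, reads with 1 or 2 CpGs had a pooled level of 26.9% in Hox clusters (35 of 130 calls), 24.9% in the flanks and 24.9% in the libraries. Single Hox libraries varied widely in this class, with 40.9%, 21.8% and 16.1% in A, B and C. On reads with 3 to 7 CpGs the level was 15.3%, 11.03% and 19.6% in Hox clusters of A, B and C, against 28.2%, 26.4% and 32.0% in the flanks and 24.5%, 25.4% and 28.9% in the libraries. Hox clusters were lower in all 3 libraries in this class. On reads with 8 or more CpGs all regions were low when pooled, at 7.88% (39 of 495 calls) in Hox clusters, 10.5% (35 of 334) in the flanks and 10.2% in the libraries. Hox library A stood at 1.07% in this class, B at 12.0% and C at 11.9%. Reads with 8 to 10 CpGs alone had 29 undeaminated of 176 Hox calls (16.5%), against 10 of 96 in the flanks (10.4%) and 17.3% in the libraries. Library B gave 25 of these 29 Hox calls. The densest Hox reads, with 11 or more CpGs, had 10 undeaminated of 319 calls (3.13%, interval 1.71% to 5.67%), against 25 of 238 in the flanks (10.5%, interval 7.22% to 15.05%) and 5.71% in the libraries. In this class Hox libraries A, B and C had 1 of 152, 5 of 144 and 4 of 23 calls undeaminated. The flank value comes from 16 reads, and library B alone gave its undeaminated calls (25 of 109, against 0 of 64 in A and 0 of 65 in C). These classes are described without a test, and calls of 1 read are not independent.

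**Figure D3:**
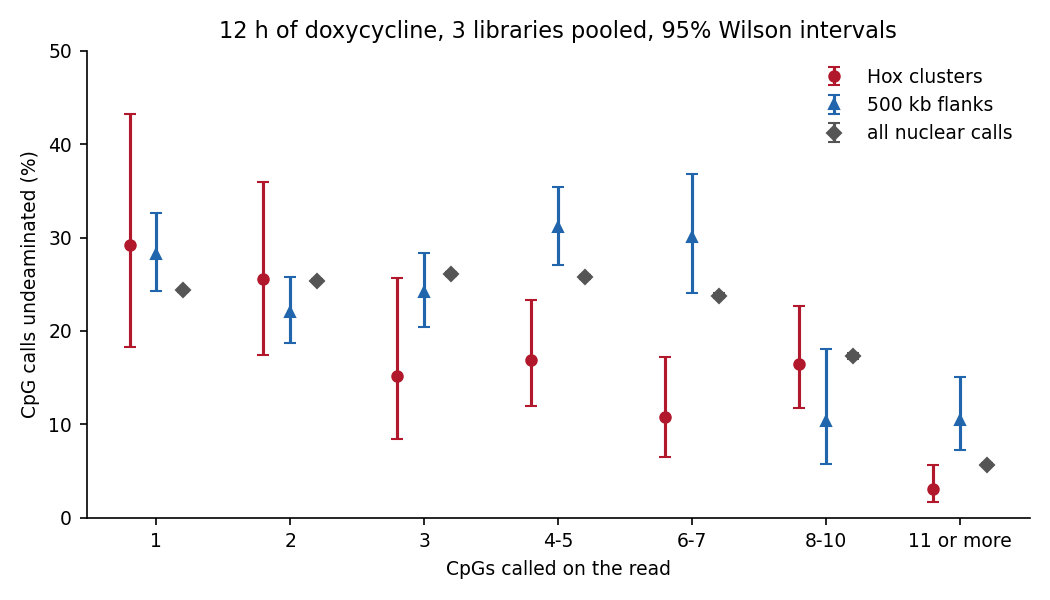
Percent of CpG calls undeaminated at 12 h (y axis) by the number of CpGs called on the read (x axis), with the 3 libraries pooled and 95% Wilson intervals for counting error. Hox clusters (circles) lie below the libraries (diamonds) on reads with 3 to 7 CpGs, at 14.4% against 25.6% when these classes are pooled, and the intervals overlap on reads with 1 or 2 CpGs.

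Whole reads were counted next. At 12 h, 83 of 209 Hox reads carried at least 1 undeaminated call (39.7%), against 38.2% of reads in the flanks and 36.8% in the libraries, although Hox reads offered more CpGs. Among reads with at least 4 CpGs the share was 48.0% in Hox clusters (47 of 98, interval 38.3% to 57.7%), 61.1% in the flanks (102 of 167, interval 53.5% to 68.1%) and 56.9% in the libraries (41099 of 72247). Reads of this class are not matched for CpGs, with a mean of 8.07 in Hox clusters, 6.02 in the flanks and 5.80 in the libraries. In the libraries the share was lower, at 29.0%, on reads with 11 or more CpGs. No Hox read with at least 4 CpGs was undeaminated throughout, against 6 of 167 such reads in the flanks and 1426 of 72247 in the libraries. The count of 0 of 98 allows a share of up to 3.06%. At 6 h the 14 undeaminated Hox calls lay on 14 different reads, so no Hox read of 6 h had more than 1. They were on 20.9% of the 67 Hox reads (interval 12.9% to 32.1%), against 10.8% of reads in the flanks and 11.6% in the libraries. With at least 4 CpGs the shares were 25.7% (9 of 35) in Hox clusters, 5.66% (3 of 53) in the flanks and 22.4% in the libraries. The 6 h shares are not matched for CpGs either. All Hox reads of 6 h had a mean of 5.24 CpGs, against 2.32 in the flanks and 2.28 in the libraries. With at least 4 CpGs the means were 8.40, 6.57 and 5.99. Per call, the pooled level at 6 h was 3.99% in Hox clusters, 5.46% in the flanks and 6.33% in the libraries. The single undeaminated Hox call of 0 h lay on a read with 5 CpGs near Hoxd11 in library C.

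Nearness to a gene end was a further feature that Hox calls shared. Within 1 kb of the start or end of a protein-coding gene lay 38.7% of Hox calls at 12 h, against 11.1% in the flanks and 11.1% in the libraries. The Hox level near gene ends was 8.98% ± 3.77 (SD, n = 3), against 14.6% ± 7.06 in the flanks and 12.2% ± 1.59 in the libraries. There A, B and C had 6.99%, 6.62% and 13.3% in Hox clusters and 10.7%, 22.7% and 10.3% in the flanks, so C went the other way. Hox reads near gene ends carried 5.79 CpGs each, against 3.94 in the flanks and 4.42 in the libraries. Away from gene ends the Hox level was 16.2% ± 1.10, with 15.3%, 15.8% and 17.4% in A, B and C, against 25.7% ± 0.941 in the flanks and 25.7% ± 2.44 in the libraries. Hox clusters away from gene ends were thus lower than both in every library, though these reads also carried 4.03 CpGs each, against 2.23 in the flanks and 2.07 in the libraries. With both the CpGs per read and the gene-end position matched, the change at 12 h against 0 h was -2.96 ± 1.16 points (SE, limma adjusted p = 0.472). No window was called lower by this measure, and 42 were lower at an unadjusted p under 0.05.

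The 4 clusters all lay below their own flanks on average at 12 h. Hoxa had 11.01% ± 2.10 (SD, n = 3), against 24.1% ± 1.85 in its flanks, and its libraries A, B and C had 10.4%, 9.26% and 13.3%. Hoxb had 14.9% ± 1.53 (SD, n = 3), against 26.1% ± 0.915 in its flanks, and its libraries had 13.2%, 16.3% and 15.1%. In Hoxa and Hoxb every library of the cluster was below every library of the flanks, as in 6.97% of the 2196 windows of 130 kb set against 500 kb on either side. Hoxc had 15.6% ± 5.80 (SD, n = 3), against 25.3% ± 3.76 in its flanks, and its library B reached 22.2%, above the 21.7% of flanks in library A. Hoxd had 13.7% ± 9.84 (SD, n = 3), against 20.6% ± 3.92 in its flanks, and its libraries spread most, with 8.89% and 7.14% in A and B and 6 of 24 calls in C. The value in C is above the Hoxd flanks of that library (18.4%). At 0 h, 0 of 114 calls in Hoxa, 0 of 99 in Hoxb, 0 of 47 in Hoxc and 1 of 68 in Hoxd were undeaminated.

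Single clusters were tested among 2196 windows of 130 kb, and no cluster passed. Of the windows, 0.0455% were called lower and 80 were lower at an unadjusted p under 0.05. Relative to the library level at 12 h against 0 h, Hoxa changed by -11.9 ± 1.70 points (SE, limma adjusted p = 0.0764, or 0.0238 among the 378 rows that no library left under 10 calls) and Hoxd by -13.9 ± 3.09 points (SE, limma adjusted p = 0.169). Hoxb changed by -7.41 ± 1.595 points (SE, limma adjusted p = 0.169) and Hoxc by -7.37 ± 2.87 points (SE, limma adjusted p = 0.370). At the same CpGs per read all 4 differences were negative, between -4.63 points in Hoxa and -2.96 points in Hoxb, with limma adjusted p-values of 0.475 to 0.785. By that measure limma called 0 windows, and 56 were lower at an unadjusted p under 0.05. Differences between the clusters were not tested, and at 9 to 16 calls in their thinnest libraries they are not resolved at this depth.

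**Figure D4:**
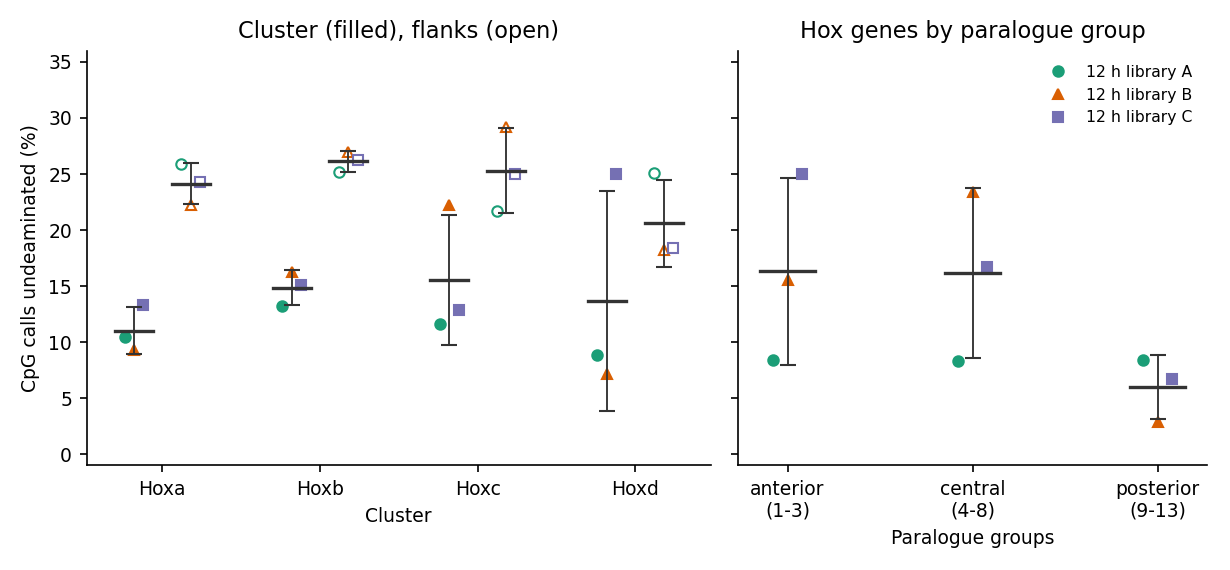
Percent of CpG calls undeaminated at 12 h (y axis) with 1 point per library, bars at the mean and error bars of 1 SD. The left panel sets each cluster (filled) beside its 500 kb flanks (open) and the right panel groups the Hox genes by paralogue number. Hoxa and Hoxb points lie wholly below those of their flanks, and the 3 points of posterior genes lie between 2.86% and 8.42%.

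Hox genes were next ordered by paralogue number, counting calls in the gene with 1 kb on either side. Of the 39 genes, 38 had calls and 34 had calls at 12 h, of which 23 had at least 1 undeaminated call and 11 had none. How many other genes with as few calls had none was not counted, so this split depends on depth. Of the 20 genes with at least 20 calls at 12 h, 17 were below the pooled library level of 23.5%, and 16 were below the level at their own CpGs per read. Among the 9917 other protein-coding genes with at least 20 calls, 56.3% were below the library level and 52.9% were below the level at their own CpGs per read. Hox genes share calls and reads, and the difference between these shares was not tested. The annotated Hoxa3, Hoxb3 and Hoxd3 genes span neighbours such as Hoxa4 to Hoxa6, Hoxb4 and Hoxd4, so some calls count for 2 genes. Counts below are summed over the 3 libraries of 12 h, without a test, and often rest on a few reads.

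Anterior genes, with paralogue numbers 1 to 3, pattern the hindbrain, the pharyngeal arches and the neck. They had 49 undeaminated of 357 calls at 12 h, and 8.39% and 15.6% in A and B and 12 of 48 in C. Hoxa3, a regulator of thymus and parathyroid development at chr6:52169059-52213067, had the most calls and 12 undeaminated of 132 (9.09%, interval 5.28% to 15.2%), as 8 of 80 in A, 3 of 41 in B and 1 of 11 in C. All 3 libraries were below their library level there, and 0 of 24 calls were undeaminated at 0 h. Hoxd3, which shapes the first neck vertebrae, had 15 of 82 (18.3%) with 3 of 28, 6 of 31 and 6 of 23 in A, B and C. Hoxb3, a hindbrain gene, had 9 of 53 (17.0%), and Hoxb2, which acts in the same region, had 4 of 47 (8.51%). Hoxb1, which defines a single hindbrain segment, stood out with 9 of 23 (39.1%), all from library B. Of these 9, 8 lay on 1 read with 10 CpGs, the second highest share among Hox reads with at least 8 CpGs.

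Central genes, with numbers 4 to 8, pattern the neck and trunk. They had 30 undeaminated of 214 calls at 12 h, and 8.33%, 23.4% and 16.7% in A, B and C. Hoxc4 had 9 of 30, of which 7 lay on 1 read with 8 CpGs in library B, while A had 0 of 14. Hoxd4, a gene of the neck vertebrae, had 7 of 23 (30.4%), with 2 of 2, 3 of 10 and 2 of 11 in A, B and C. Hoxc6, a gene of the upper trunk, had 5 of 28 (17.9%). Hoxb8 had 1 of 27 (3.70%), Hoxa7 had 1 of 21 (4.76%) and Hoxa4 had 1 of 20 (5.00%). The genes of this class therefore ran from levels above the library level to levels far below it.

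Posterior genes, with numbers 9 to 13, pattern the lower trunk, the limbs and the urogenital tract. They had 15 undeaminated of 280 calls at 12 h, and 8.42%, 2.86% and 6.67% in A, B and C. Hoxc13, a regulator of hair and nail formation, had 0 of 33 calls, which allows up to 9.09%. Hoxd11, a gene of the forearm, had 0 of 36, which allows up to 8.33%, and Hoxc11 had 0 of 25, which allows up to 12.0%. Hoxd13, needed for digits, had 1 of 35 (2.86%), and Hoxd10 had 1 of 25 (4.00%). Hoxa10, a gene of the uterus and lower spine, had 1 of 22 (4.55%), and Hoxa11 had 1 of 22 (4.55%). Hoxb13, a prostate gene, had 2 of 25 and Hoxb9 had 4 of 36 (11.1%). Hoxc9, a trunk gene, had 3 of 5 calls undeaminated at 12 h, all from 1 read of library A, and 0 of 35 at 6 h. Every posterior gene named here with at least 20 calls was below the library level. The level at the CpGs per read of each class was 15.2% for anterior, 18.1% for central and 15.1% for posterior genes, so the posterior class lay furthest below its own. With only calls that belong to 1 class, a count added after the values were seen, the anterior genes had 37 of 289, the central genes 18 of 146 and the posterior genes 15 of 280. The classes overlap in library A, where they had 8.39%, 8.33% and 8.42%, and the order rests on B and C.

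**Figure D5:**
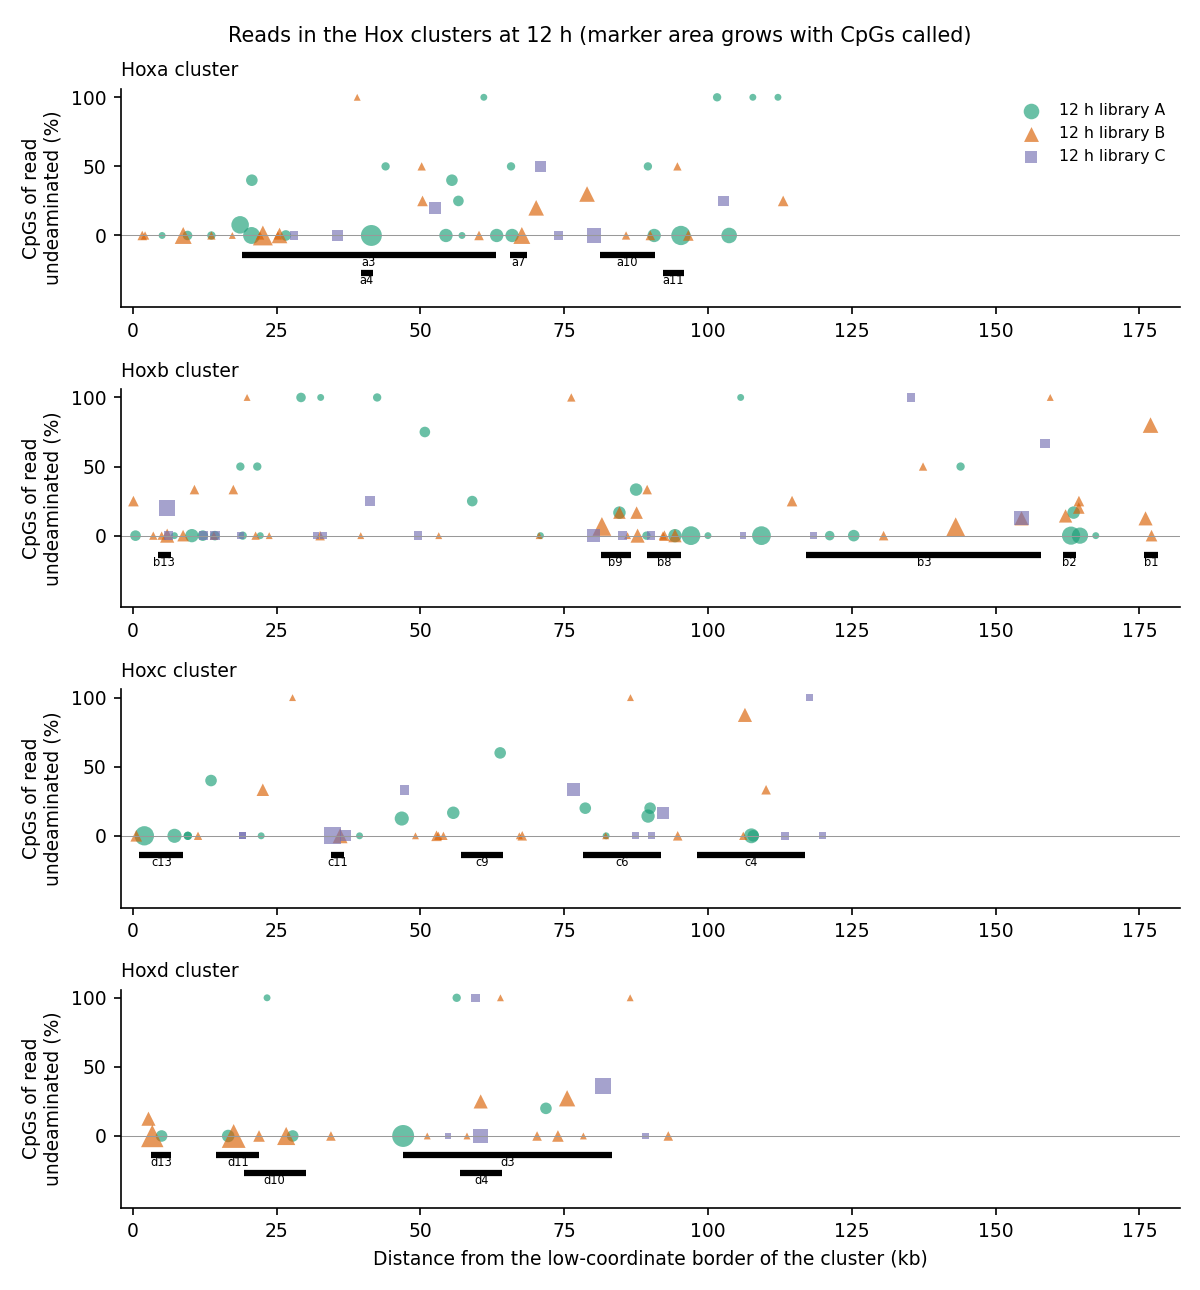
Each marker is 1 read of a 12 h library, placed by its distance from the low-coordinate border of the cluster in kb (x axis) and by the percent of its CpGs in the cluster that were undeaminated (y axis), with larger markers for more CpGs. Black bars show the 21 named Hox genes by their short names. Of the 41 reads with at least 8 CpGs, 25 lie at 0%, and single reads near Hoxb1 (80.0%) and Hoxc4 (87.5%) lie highest.

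Within the clusters, calls inside Hox genes were set beside the rest. The level at 12 h was 11.9% ± 3.65 inside Hox genes (SD, n = 3, 73 of 682 calls) and 18.3% ± 7.38 where no gene is annotated (SD, n = 3, 38 of 211 calls). The spread between libraries where no gene is annotated is larger than this difference. The pooled level was 10.7% inside Hox genes, against 15.2% at the same CpGs per read, and 18.0% where no gene is annotated, against 22.8% at the same CpGs per read. Both lay below by similar amounts. Calls inside other annotated genes only, mainly long non-coding RNA genes, had 15 undeaminated of 94. The longest stretch without a Hox gene, a comparison chosen after the values were seen, was the 74.7 kb between Hoxb13 and Hoxb9 (chr11:96196611-96271329). It had 18 undeaminated of 84 calls (21.4%), against 35 of 271 (12.9%) in the rest of Hoxb. At the same CpGs per read the library level was 25.5% for the stretch and 17.0% for the rest, so that both lay below by similar amounts. The libraries disagreed there, with 32.4%, 20.0% and 4.55% in A, B and C for the stretch. Tiles of 10 kb, examined after the values were seen, gave 18 of 22 below the library level among those with at least 20 calls at 12 h, against 63.2% of the 6972 such tiles elsewhere. At their own CpGs per read, 18 of the 22 were below, against 57.7% elsewhere. Of the 29 tiles with fewer calls, 17 were below the library level, and no share among tiles elsewhere with as few calls was counted.

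Of the non-coding genes in the clusters, 19 long non-coding RNA genes had calls at 12 h and 12 of them had an undeaminated one. Hoxa11os, antisense to Hoxa11, had 0 of 20 calls undeaminated at 12 h, and Hoxaas3 had 5 of 33. Hoxb3os had 6 of 41. Hoxa11os, Hoxaas3 and Hoxb3os overlap Hox genes, so some of their calls were already counted above. Many of the 19 genes rest on few reads, and no share among other genes with as few calls was counted. The table lists 6 microRNA genes in the clusters, and none of them had a call.

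Genes that work with or upstream of the Hox genes were counted in the same way. Hox cofactors of the Pbx, Meis and Pknox families, which bind DNA together with Hox proteins, had a level of 25.9% ± 2.15 at 12 h (SD, n = 3, 9 of 9 genes with calls) at 2.23 calls per read. ParaHox, Cdx and Evx genes, which are homeobox genes related to the Hox genes or act upstream of them, had 5.45% ± 3.36 (SD, n = 3, 11 of 191 calls) at 7.35 calls per read, where the level at the same CpGs per read was 12.2%. Evx2, which lies beside Hoxd, gave 0 of 84 of these calls, and without it the level was 9.37% ± 3.75 (SD, n = 3, 11 of 107 calls), against 13.1% at the same CpGs per read. Other homeobox genes of development had 11.8% ± 0.567 (SD, n = 3, 129 of 1115 calls) at 5.90 calls per read, against 15.03% at the same CpGs per read. Polycomb subunits, which silence the Hox clusters, had 22.1% ± 3.89, and Trithorax-group genes, which oppose them, had 24.3% ± 7.53 (SD, n = 3 each). The lists with more than 5 calls per read were low, also at the same CpGs per read, and those with fewer than 3 were near the library level. None of these differences was tested.

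The reads came from 3 sequencing runs, which every group shared. At 12 h the pooled level was 14.1%, 11.8% and 13.3% in Hox clusters of the 3 runs, against 18.0%, 23.2% and 27.1% in the flanks and 23.8%, 23.5% and 23.6% in all nuclear calls. The Hox clusters were below both in each run. At 0 h the runs had 0 of 13, 1 of 170 and 0 of 145 undeaminated Hox calls.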

How the data were processed

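ACE-seq libraries of 3 untreated, 2 6-h and 3 12-h samples were grouped by their titles. The authors deposited, for each CpG on each read, a letter for an undeaminated or a deaminated call (an other unit than counts), written by version 0.22.3 of Bismark's methylation extractor, per the file headers. Bismark, Trim Galore and the build GRCm38 stand in the submitters' processing notes. How reads were trimmed and aligned, and whether duplicates were removed, is not given in the sources used here.

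The clusters, gene lists and comparisons were chosen with earlier results of these data known. Differences in percentage points between a region's level and its comparison level, 1 per library, were fitted with limma 3.58.1 in R 4.3.3 over all 8 libraries, with 3 groups as 1 factor, weights of calls over the binomial variance of the library level, and Benjamini-Hochberg adjustment (threshold 0.05). Rows were the Hox clusters and 500 kb windows with at least 10 calls in every library. Single clusters were fitted with windows of 130 kb and at least 5 calls. Reads within 1 library were told apart by read name. The limma and quasi-binomial fits of the difference from the library level were tested on simulated data. Simulated calls were independent of each other, so this does not cover calls that share a read. Genes came from a GRCm38.p6 table without strand or exons. Counting used Python 3.11.15, pandas 2.3.3, NumPy 2.4.6 and SciPy 1.17.1.

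Named genes were the 3 Hox genes of each cluster with most calls and any with at least 20 calls at 12 h, and promoters were shown for the genes with most promoter calls, at most 1 per cluster. Alternatives were leaving out each library or cluster, a replicate block, 1 call per read, duplicates counted once, no weights, at least 20 calls, a quasi-binomial fit, finer CpG classes, moved borders and shorter flanks. A library held 75023 to 485941 calls, so that 146 to 440 Hox calls at 12 h set the precision.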

Additional observations from a re-analysis of the deposited data

How the results depend on the processing

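The Hox difference from the library level, 12 h against 0 h, stayed between -10.1 and -9.68 points when each library was left out. Its limma adjusted p then ran between 0.00718 and 0.100. It came to -5.93 with 1 call per read and -10.02 without weights, and neither passed. With the replicate block it was -9.76 (limma adjusted p = 6.64e-05). Same-letter correlations of the deviations ran between -0.0480 and 0.0258, and different-letter ones between -0.0466 and 0.0480. In windows with as few as 10 calls in a library, these values cannot tell whether replicate letters pair the libraries. On the logit scale the signs of the 12 h against 0 h differences turned, to 0.526 against the library, 0.953 at the same CpGs per read, 1.03 with gene ends also matched, 0.142 against the flanks and 0.521 against the flanks at the same CpGs per read. That scale rests on 1 undeaminated Hox call at 0 h.

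Against the flanks, the 12 h against 0 h difference passed with the replicate block (-11.2, limma adjusted p = 0.0221), with at least 20 calls (-11.47, limma adjusted p = 0.0227) and without Hoxd (-11.4, limma adjusted p = 0.0461). It ran between -12.1 and -10.5 when each library was left out, and with flanks of 100 kb it was -9.11. The 6 h against 0 h differences changed sign in some alternatives. Against the library the difference, -1.55 points, kept its sign in 17 alternatives. It turned in 2, to 0.434 with 1 call per read and 0.778 on the logit scale. At the same CpGs per read the difference was close to 0, at -0.0451 points, and its sign was kept in 13 and turned in 7. This matched difference ran between -0.641 and 0.177 when each library was left out, and came to 1.06 with 1 call per read, 1.10 on the logit scale, 0.340 with borders 10 kb inwards, 0.296 without Hoxc and 0.365 without Hoxd. The 6 h against 0 h gain ran between 3.39 and 4.94 points. The gains at 12 h passed whichever library was left out. The causes were not tested. At single genes the depth, often 1 to 3 reads in a library, limits what can be told apart.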
